A study of Mus musculus with 6 samples.

Results

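Complex I of the respiratory chain is built from nuclear and mitochondrial subunits with the help of assembly factors, proteins that hold or modify the growing complex and are absent from the finished enzyme. The 8 genes described here, Ndufaf1 to Ndufaf8, are those named in mouse as complex I assembly factors, among 35968 genes with a transcript in the data. The set was chosen by a measured value, the lower transcript level of Ndufaf4 in stromal cells in co-culture, so that the change of Ndufaf4 is given here as a description with no test. The other 7 genes were taken in by name. All 8 passed the filter on low counts and were among the 13221 genes tested.

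RNA was sequenced from MS-5 cells, a mouse bone marrow stromal line, cultured alone (MO1, MO2 and MO3) or in co-culture for 24 hr with SKM-1 cells, a human AML line (MC1, MC2 and MC3), with 3 libraries in each group. Both groups shared the same line and the same serum-supplemented medium, and the labels name no drug or allele in either. The AML cells were plated over confluent stromal cells at a 4:1 ratio and 750000 cells per ml. Before the stromal RNA was extracted, the stromal layer was washed and lightly trypsinised with the aim of removing attached AML cells. The labels do not say whether the 3 libraries of a group came from separate cultures, so that p-values measure the spread between these libraries, which may be technical.

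Total estimated counts lay between 23978881 and 27182453 in MS-5 only and between 26258451 and 35694987 in co-culture. MO2 and MC3 stood apart from the other 4 libraries. Mitochondrially encoded genes made up 6.03% and 5.89% of their counts and 10.5% to 13.1% in the rest, and transcripts annotated as retained introns took 5.22% and 5.36% of their TPM (a level per transcript length and per library total), against 2.46% to 2.73%. No label names a batch. The 8 stromal markers were detected in every library, with a summed level of 1820 to 3180 TPM. The summed level of the 10 leukocyte markers was 17.7 to 32.3 TPM in MS-5 only, with Irf8 and Cd37 at 0. It was 130 TPM in MC1, 652 TPM in MC2 and 186 TPM in MC3. The largest values in MC1, MC2 and MC3 were those of Rac2 (46.1, 233 and 65.3 TPM) and Coro1a (33.4, 188 and 44.2 TPM). Itgb2 (2.51 to 5.78 TPM in MS-5 only, 2.51 to 6.04 TPM in co-culture) and Cd53 (1.89 to 4.71 and 2.98 to 3.84 TPM) overlapped between groups. The part of the leukocyte markers in the results was not tested. In bulk RNA, fewer cells of a type and less RNA per cell cannot be told apart.

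The assembly factors act on different modules of the enzyme. Ndufaf3 and Ndufaf4 bind each other and act early, on the module that takes up ubiquinone and its junction with the membrane arm. Ndufaf5 hydroxylates an arginine of the subunit Ndufs7 and is stabilised by Ndufaf8, and Ndufaf7 is an arginine methyltransferase. Ndufaf6 is needed for the part of the membrane arm that holds the mitochondrial subunit Nd1, Ndufaf1 belongs to the complex that builds the membrane arm with Acad9, Ecsit, Tmem126b and Tmem186, and Ndufaf2 is a relative of the subunit Ndufa12 that occupies its place in late intermediates.

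The genes lie apart in the genome (GRCm38, GENCODE M21). Ndufaf4 lies on the forward strand of chromosome 4 from 24898083 to 24905001, and Ndufaf6 on the reverse strand of the same chromosome from 11051045 to 11076205. Ndufaf1 (119655446 to 119662827, reverse) and Ndufaf5 (140170649 to 140203689, forward) lie on chromosome 2. Ndufaf3 lies on chromosome 9 (108565537 to 108567434, reverse), Ndufaf8 on chromosome 11 (120098928 to 120100705, forward), Ndufaf2 on chromosome 13 (108002715 to 108158623, reverse) and Ndufaf7 on chromosome 17 (78937136 to 78948052, forward). A feature that the choice of genes did not use is their start sites. In 5 of the 8 genes (62.5%) another annotated gene starts on the opposite strand within 1000 bases, as it does for 26.8% of the 12322 protein-coding genes tested. The nearest partners are Ercc8 (108 bases from the start of Ndufaf2), Esf1 (85 bases from Ndufaf5), Cebpz (70 bases from Ndufaf7), Tepsin (197 bases from Ndufaf8) and the lincRNA 4833445I07Rik (99 bases from Ndufaf3). Mir191 also starts within the window, 885 bases from Ndufaf3. Ndufaf1, Ndufaf4 and Ndufaf6 have no such partner.

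The promoters of the 3 genes whose levels turned out lowest in co-culture relative to MS-5 only by mean TPM are shown, because the values below set these genes beside each other. Each is a RefSeq window of GRCm38.p6 from 250 bases before to 50 after the start, read 5′ to 3′ on the strand of the gene, with matches to the searched motifs in capitals. The windows are chr4:24897833-24898132 for Ndufaf4, chr2:140170396-140170695 for Ndufaf5 and chr13:108158576-108158875 for Ndufaf2.
Ndufaf4: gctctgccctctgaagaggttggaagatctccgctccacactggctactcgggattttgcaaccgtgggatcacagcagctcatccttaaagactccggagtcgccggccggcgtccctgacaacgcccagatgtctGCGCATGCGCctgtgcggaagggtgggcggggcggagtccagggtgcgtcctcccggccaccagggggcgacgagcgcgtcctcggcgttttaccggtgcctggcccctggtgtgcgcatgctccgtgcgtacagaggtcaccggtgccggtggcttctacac
Ndufaf5: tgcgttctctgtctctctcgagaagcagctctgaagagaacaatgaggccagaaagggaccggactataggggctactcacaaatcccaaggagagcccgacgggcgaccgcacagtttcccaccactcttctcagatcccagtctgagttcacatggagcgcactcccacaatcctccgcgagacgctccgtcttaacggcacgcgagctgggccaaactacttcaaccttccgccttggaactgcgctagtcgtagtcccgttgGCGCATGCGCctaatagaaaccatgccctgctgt
Ndufaf2: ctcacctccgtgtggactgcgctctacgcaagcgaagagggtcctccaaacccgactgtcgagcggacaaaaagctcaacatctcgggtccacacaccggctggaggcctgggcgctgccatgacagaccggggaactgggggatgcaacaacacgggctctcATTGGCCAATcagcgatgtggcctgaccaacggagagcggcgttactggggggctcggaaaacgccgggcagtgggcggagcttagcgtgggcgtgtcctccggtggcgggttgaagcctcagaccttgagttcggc

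In the first pair the capitals mark the core of the site of nuclear respiratory factor 1 (NRF1), a regulator of many genes for mitochondrial proteins. This palindrome begins at position -113 of Ndufaf4 and at position 17 of Ndufaf5, counting the first transcribed base as 1. It was found in 2 of the 7 members with a window and in 0.971% of all 32851 windows. The palindrome itself holds CG pairs. The windows of Ndufaf4 and Ndufaf5 hold 28 and 21 such pairs, and the median of all windows is 7. The share among windows of like CG content was not computed, so that these shares do not measure an enrichment. In Ndufaf2 the capitals mark a CCAAT box and its inverted copy side by side, at positions -87 and -82. CCAAT was found in 4 members (Ndufaf1, Ndufaf2, Ndufaf3 and Ndufaf8) and in 37.4% of all windows. The ETS motif CCGGAAG was found in Ndufaf1 and Ndufaf8 and in 8.86% of windows, AAGATGGC, the core of the YY1 site, in Ndufaf8 and in 2.75%, and ACGTG, the core of the hypoxia response element, in Ndufaf3 and in 19.6%. CACGTG, which contains ACGTG, was found in 0 members and in 7.15% of windows. Both strands were searched. A match is a description of the letters and not evidence of a bound factor.

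Ndufaf4 was the member with the lowest mean TPM, in MS-5 only and in co-culture. In MS-5 only its level was 10.6 TPM in MO1, 8.5 TPM in MO2 and 7.1 TPM in MO3. In co-culture it was 3.16 TPM in MC1, 3.99 TPM in MC2 and 5.52 TPM in MC3. All co-culture libraries lay below all MS-5 only libraries, and the mean in co-culture, 4.22 ± 1.20 TPM (SD, n = 3), was 48.3% of the mean in MS-5 only, 8.73 ± 1.75 TPM (SD, n = 3). The counts were 416, 328 and 247 in MO1, MO2 and MO3, and 195, 143 and 227 in MC1, MC2 and MC3. In edgeR's fit of these counts its log2 fold change (called the log2 difference below, always co-culture over MS-5 only) was -1.05, with a standard error (SE) of 0.23. These values chose the set and carry no test. As background to them, 0.666% of the genes tested were called lower by the threshold used here, an adjusted p-value under 0.1 over all genes in edgeR's quasi-likelihood test, and in 9.6% of the genes tested all co-culture libraries lay below all MS-5 only libraries in CPM (counts scaled to library size and normalized by TMM, not per length).

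Ndufaf4 was lower in each set of like libraries, with different sizes. MC3 against MO2 gave a log2 ratio of mean CPM of -0.66, and MC1 and MC2 against MO1 and MO3 gave -1.23. Without MO1 the log2 fold change was -0.80, the smallest difference with any library left out. The CPM of Ndufaf4 was 5.95 in MC1, 5.94 in MC2 and 6.61 in MC3, and 10.4 to 16.6 in MS-5 only.

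Ndufaf4 has 3 annotated transcripts in the data. The longer coding transcript has 3 exons and 3632 bases, the shorter has 4 exons and 673 bases, and the non-coding transcript has 2 exons and 2358 bases. The non-coding transcript held 46.6% to 61.9% of the gene's TPM in MS-5 only and 44.6% to 63.5% in co-culture, so that a large part of the gene's level did not come from an annotated coding transcript. The summed level of the coding transcripts was 5.33, 3.24 and 3.79 TPM in MO1, MO2 and MO3 and 1.59, 2.21 and 2.01 TPM in MC1, MC2 and MC3, with no overlap between groups. The level of the non-coding transcript was 5.25, 5.27 and 3.31 TPM in MS-5 only and 1.57, 1.78 and 3.50 TPM in co-culture, and here MC3 lay above MO3. Counting coding transcripts alone, the log2 fold change of the gene was -0.95 (SE 0.28). Kallisto divides reads among transcripts that share exons, and the division between these transcripts is an estimate.

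**Figure D1:**
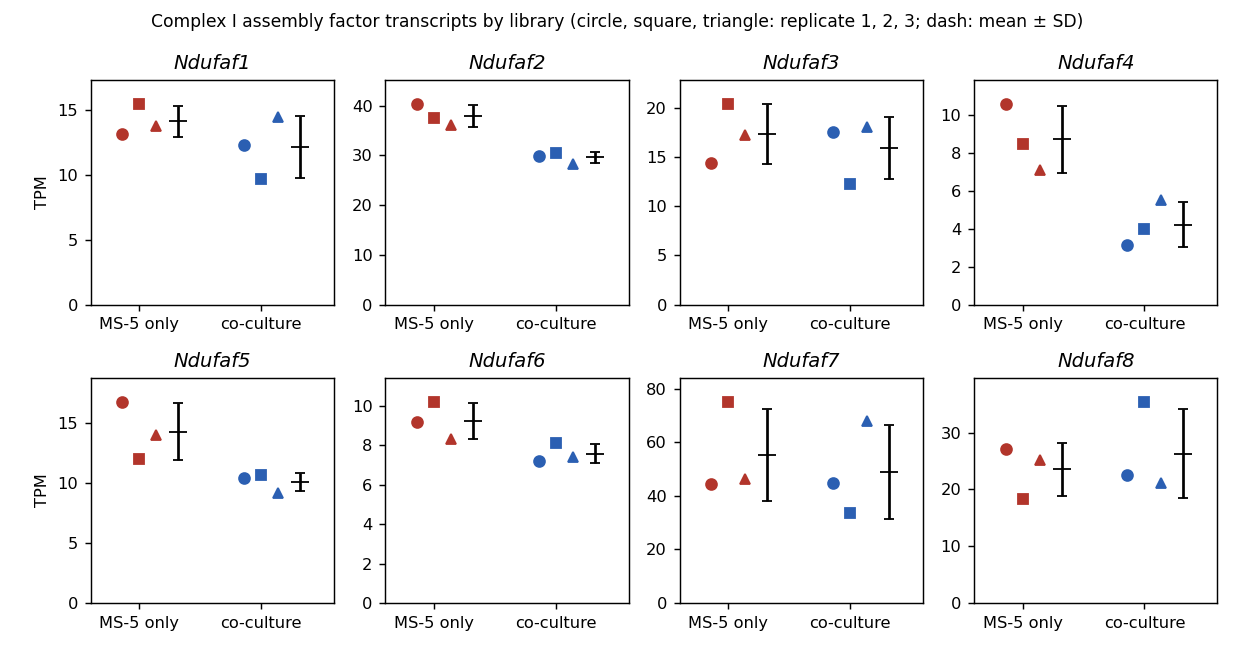
Level in TPM (vertical axes, each starting at 0) of the 8 complex I assembly factor genes in the 3 MS-5 only libraries (red) and the 3 co-culture libraries (blue). Circles, squares and triangles are replicates 1, 2 and 3, and the dash with its bar is the mean ± SD. The groups of Ndufaf2, Ndufaf4, Ndufaf5 and Ndufaf6 do not overlap, with co-culture lower, while MO2 and MC3 are the highest points of Ndufaf7 and MC2 that of Ndufaf8.

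Ndufaf3, the binding partner of Ndufaf4, was at 14.4, 20.4 and 17.2 TPM in MS-5 only and at 17.5, 12.3 and 18 TPM in co-culture. The groups overlapped. Its log2 fold change was -0.27 (SE 0.20, 95% interval -0.74 to 0.20, edgeR adjusted p = 0.639). It was -0.11 without MO3 and -0.40 without MO2.

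Ndufaf5, the hydroxylase, had the largest fold change among the 7 genes other than Ndufaf4. Its level was 16.7, 12 and 14.0 TPM in MS-5 only and 10.4, 10.6 and 9.17 TPM in co-culture, which in TPM left no overlap between groups. In CPM the groups overlapped, and MO2 (7.10 CPM) and MC3 (5.39 CPM) lay below the other libraries of their groups. The log2 fold change was -0.52 (SE 0.36, 95% interval -1.38 to 0.35, edgeR adjusted p = 0.619). It was -0.28 without MO1, -0.29 without MC3 and -0.78 without MO2. The call turned with a covariate for MO2 and MC3. Nearly all of the level came from the coding transcript, with a share of 96.9% to 100.0% in each library.

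Ndufaf8, which stabilises Ndufaf5, differed between its coding and retained intron transcripts. Its level was 27.2, 18.3 and 25.2 TPM in MS-5 only and 22.5, 35.4 and 21.1 TPM in co-culture, with MC2 highest. The coding transcripts were at 18.1, 12.2 and 15.3 TPM in MS-5 only and at 12.3, 12.9 and 11.7 TPM in co-culture. The retained intron transcript was at 9.11, 6.09 and 9.90 TPM in MS-5 only and at 10.3, 22.5 and 9.43 TPM in co-culture, and it took 63.6% of the gene's level in MC2 against 33.4% to 45.6% in the other 5 libraries. MC2 was also the library with the highest summed leukocyte markers (652 TPM), and the part of these in the result was not tested. The log2 fold change over all transcripts was -0.12 (SE 0.41, 95% interval -1.09 to 0.86, edgeR adjusted p = 0.968), and its sign turned to 0.14 on log2(TPM + 0.5). Without MO1 it was 0.12, without MO3 0.0095 and without MC3 0.12, while without MO2 it was -0.42 and without MC2 -0.40. Counting coding transcripts alone, it was -0.39 (SE 0.35, edgeR adjusted p = 0.742).

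The target of Ndufaf5, Ndufs7, had a log2 difference of -0.38 (SE 0.25, edgeR adjusted p = 0.603). It was -0.164 without MO1, -0.225 without MC3 and -0.566 without MO2. With the covariate for MO2 and MC3 the gene passed (edgeR adjusted p = 0.0681), as did 30.2% of all genes tested. Ndufs7 was at 110.1, 62.9 and 88.3 CPM in MS-5 only and at 81.0, 68.1 and 52.0 CPM in co-culture, with overlap.

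Ndufaf7, the methyltransferase, was the most abundant member. Its level was 44.3, 74.9 and 46.4 TPM in MS-5 only and 44.9, 33.5 and 67.9 TPM in co-culture, so that MO2 and MC3 were high and the groups overlapped. Retained intron transcripts held 35.9% of the level in MO2 and 37.6% in MC3, against 14.5% to 24.1% in the other 4 libraries. The coding transcripts alone were at 34.9, 48.0 and 39.5 TPM in MS-5 only and at 34.1, 28.6 and 42.4 TPM in co-culture. The log2 fold change was -0.20 (SE 0.14, 95% interval -0.53 to 0.14, edgeR adjusted p = 0.636), the narrowest interval of the 8 genes, on 1098 to 1800 counts.

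Ndufaf6 was at 9.17, 10.2 and 8.35 TPM in MS-5 only and at 7.23, 8.12 and 7.40 TPM in co-culture. In TPM every co-culture library lay below every MS-5 only library, and in CPM the groups overlapped. It rested on few reads, with 101 to 171 counts in a library, and its log2 fold change was -0.26 (SE 0.32, 95% interval -1.03 to 0.50, edgeR adjusted p = 0.834). It was -0.02 without MC3, -0.11 without MO1 and -0.43 without MC2.

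Ndufaf1 was at 13.2, 15.5 and 13.8 TPM in MS-5 only and at 12.3, 9.70 and 14.5 TPM in co-culture, with overlap. Its log2 fold change was -0.28 (SE 0.21, 95% interval -0.79 to 0.23, edgeR adjusted p = 0.663). It was -0.14 without MO3, -0.17 without MC3 and -0.43 without MO2.

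Ndufaf2 was at 40.4, 37.5 and 36.1 TPM in MS-5 only and at 29.9, 30.6 and 28.3 TPM in co-culture. In TPM the groups did not overlap, and the mean in co-culture was 77.9% of that in MS-5 only, with an SD of 1.17 TPM and 2.17 TPM. In CPM they overlapped, with MO2 at 11.2 CPM and MC3 at 8.94 CPM against 17.0 and 18.6 CPM in MO3 and MO1 and 14.3 and 14.9 CPM in MC1 and MC2. The log2 fold change was -0.30 (SE 0.28, 95% interval -0.96 to 0.37, edgeR adjusted p = 0.75). It was -0.10 without MC3, -0.14 without MO1 and -0.49 without MO2. Its relative among the subunits, Ndufa12, had a log2 difference of -0.27 (SE 0.40, edgeR adjusted p = 0.876), which was 0.02 without MC3.

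Of the 7 genes other than Ndufaf4, 0 passed an adjusted p-value of 0.1 in edgeR's quasi-likelihood test, where 4.38% of all genes tested passed in either direction. At an unadjusted p under 0.05 there were also 0, where 14.3% of all genes tested lay. DESeq2's Wald test called 0 of the 7 and 9.59% of all genes tested, and limma on log2(TPM + 0.5) called 0 and 2%. A count of 0 among 7 genes is near these shares. All 7 log2 fold changes were negative, with a median of -0.27 (that of Ndufaf8 was positive by limma on TPM and with some libraries left out), as were 52.5% of all genes tested, whose median was -0.02. The lists of like genes described below leaned the same way. Negative values made up 93.3% of the assembly factors of complexes II to V and 81.8% of the other complex I assembly factors. In the subunits they made up 89.7% (accessory), 85.7% (nuclear core) and 71.4% (mitochondrial core). The 7 genes were measured in the same libraries and are not independent of each other. In CPM, 0 of the 7 had every co-culture library below every MS-5 only library, where 9.6% of all genes tested did. In TPM, 3 did (Ndufaf2, Ndufaf5 and Ndufaf6), where 7.53% of all genes tested did.

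Since MO2 and MC3 stood apart, values within sets of like libraries are given. MC3 against MO2 gave negative log2 ratios of CPM for 6 of the 7 genes, from -0.16 for Ndufaf7 to -0.53 for Ndufaf6, and 0.14 for Ndufaf8. MC1 and MC2 against MO1 and MO3 gave -0.18 for Ndufaf8 and Ndufaf6, -0.21 for Ndufaf7, about -0.3 for Ndufaf1, Ndufaf2 and Ndufaf3 and -0.55 for Ndufaf5. With a covariate for MO2 and MC3 in edgeR's fit, 2 of the 7 passed, both lower. These were Ndufaf5 with a log2 difference of -0.50 (SE 0.12, edgeR adjusted p = 0.0347) and Ndufaf2 with -0.30 (SE 0.09, edgeR adjusted p = 0.0654). In that fit 30.2% of all genes tested passed, 16.4% as lower. With MO2 and MC3 left out, 0 of the 7 passed, where 12.5% of all genes tested did. In that fit the log2 difference of Ndufaf5 was -0.53 (SE 0.16, edgeR adjusted p = 0.118) and that of Ndufaf2 was -0.27 (SE 0.13, edgeR adjusted p = 0.263).

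**Figure D2:**
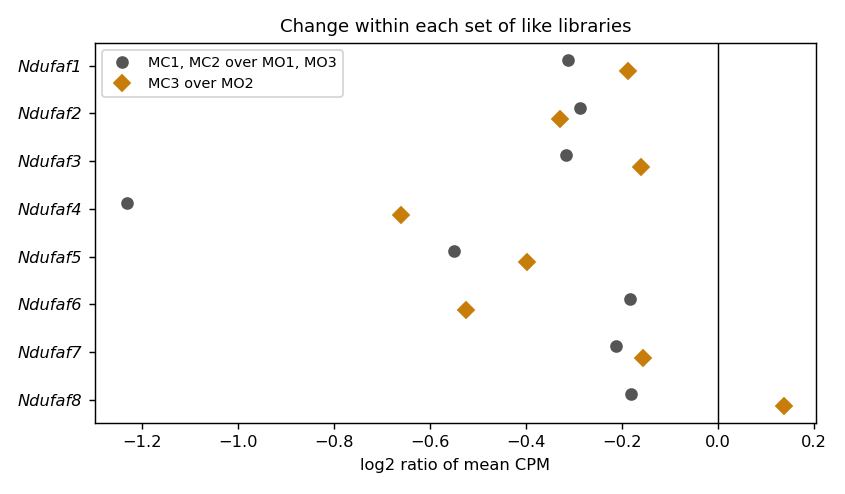
Log2 ratio of mean CPM, co-culture over MS-5 only, for each of the 8 genes within each set of like libraries. Dark grey circles are MC1 and MC2 over MO1 and MO3, orange diamonds are MC3 over MO2. The 2 values of Ndufaf4 are -1.23 and -0.66, and Ndufaf8 is the gene with a value above 0.

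**Figure D3:**
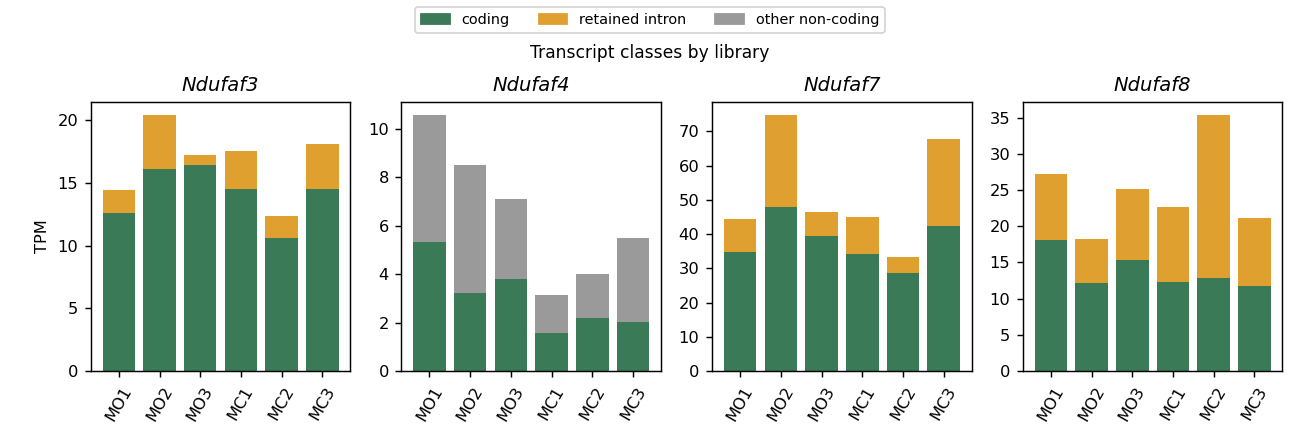
Summed TPM of coding (green), retained intron (orange) and other non-coding transcripts (grey) of Ndufaf3, Ndufaf4, Ndufaf7 and Ndufaf8 in the 6 libraries, with axes starting at 0. Retained introns are tallest in MO2 and MC3 for Ndufaf7 and in MC2 for Ndufaf8, and the non-coding part of Ndufaf4 is taller than the coding part in MO2 (5.27 against 3.24 TPM) and MC3 (3.50 against 2.01 TPM).

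The order of levels in MS-5 only, by mean TPM, was Ndufaf7 (55.2 ± 17.1, SD, n = 3), Ndufaf2 (38.0 ± 2.17), Ndufaf8 (23.6 ± 4.70), Ndufaf3 (17.3 ± 3.01), Ndufaf5 (14.3 ± 2.35), Ndufaf1 (14.2 ± 1.21), Ndufaf6 (9.23 ± 0.905) and Ndufaf4 (8.73 ± 1.75). The libraries of Ndufaf8 and Ndufaf3 overlapped, as did those of Ndufaf3 and Ndufaf5, of Ndufaf5 and Ndufaf1 and of Ndufaf6 and Ndufaf4. The order in co-culture was the same except that Ndufaf1 (12.2 TPM) lay above Ndufaf5 (10.1 TPM). The median gene tested was at 13.7 TPM in MS-5 only, so that Ndufaf7, at the percentile 82.1 of the genes tested, and Ndufaf2, at 75.2, were well above the middle and Ndufaf4, at 39.8, below it. Subunit genes were far more abundant. The median level of the nuclear subunit genes of complex I was 143 to 178 TPM in a library, while the 8 assembly factor genes together reached 144 to 197 TPM. Ndufaf4 made up 4.22% to 6.01% of that sum in MS-5 only and 2.13% to 3.21% in co-culture.

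The other genes of complex I and of respiratory chain assembly were taken from lists by name. Among the other complex I assembly factors, 11 of 12 were found and tested (Coa1 was not matched). Of these, 1 was lower, Tmem186, which sits with Ndufaf1 in the complex that builds the membrane arm, and 0 were higher, where 0.666% of all genes tested were called lower and 4.38% in either direction. A negative log2 fold change was found in 9 of the 11 (median -0.21), as in 52.5% of all genes tested. Tmem186 had 19.9, 20.9 and 23.4 CPM in MS-5 only and 12.7, 12.6 and 14.0 CPM in co-culture. All co-culture libraries lay below all MS-5 only libraries, and the log2 fold change was -0.71 (SE 0.14, edgeR adjusted p = 0.0762). The call was lost with each of the 6 libraries left out in turn, at adjusted p-values from 0.108 without MC3 to 0.304 without MO1, while the log2 fold change stayed between -0.64 and -0.76. It was also lost with library size in place of TMM (edgeR adjusted p = 0.187). The other partners of Ndufaf1 did not pass in the main fit. With the covariate for MO2 and MC3, where 30.2% of all genes tested passed, Acad9 and Ecsit did (edgeR adjusted p = 0.0399 and 0.0334). With MO2 and MC3 left out, where 12.5% passed, Acad9 did (edgeR adjusted p = 0.0994). Without MO1 the log2 fold changes of Acad9 and Ecsit were -0.248 and -0.195, and without MO2 they were -0.553 and -0.583. The values that follow are those of the main fit. Acad9 had a log2 difference of -0.40 (SE 0.19, edgeR adjusted p = 0.415), Ecsit -0.38 (SE 0.27, edgeR adjusted p = 0.622) and Tmem126b 0.04 (SE 0.20, edgeR adjusted p = 0.980), whose sign turned without MO1 (-0.08) or MC3 (-0.06). Foxred1, a late assembly factor, was lower in every co-culture library, with a log2 difference of -0.36 (SE 0.13, edgeR adjusted p = 0.280).

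Among the subunits themselves, 0 of 7 nuclear core subunits, 0 of 7 mitochondrial core subunits and 0 of 29 accessory subunits passed in edgeR's quasi-likelihood test, and 0, 0 and 1 had an unadjusted p under 0.05, where 4.38% and 14.3% of all genes tested passed these thresholds. DESeq2's Wald test and limma on log2(TPM + 0.5) also called 0 in these lists, and 9.59% and 2% of all genes tested. The median log2 fold changes of these lists were -0.09, -0.05 and -0.15. The smallest p-values of the nuclear core subunits were those of Ndufs7 and of Ndufs8, an iron-sulphur subunit (log2 fold change -0.37, SE 0.32, edgeR adjusted p = 0.725). The log2 fold change of Ndufs8 was -0.14 without MC3 and -0.61 without MO2. Ndufs8 passed as lower with MO2 and MC3 left out (edgeR adjusted p = 0.0991) and with the covariate for them (edgeR adjusted p = 0.0184). Of the mitochondrial subunits, mt-Nd6 had 0.13 (SE 0.40, edgeR adjusted p = 0.964) and mt-Nd2 had -0.09 (SE 0.54, edgeR adjusted p = 0.983), and the sign of each changed with some libraries left out. MO2 and MC3 were low in these genes, with mt-Nd2 at 3942 and 3704 CPM there and at 8400 to 10290 CPM in the other 4 libraries. The accessory subunit Ndufv3 had a positive value, with 69.4, 56.7 and 87.6 CPM in MS-5 only and 131.6, 114.4 and 86.5 CPM in co-culture, with a log2 difference of 0.64 (SE 0.22, edgeR adjusted p = 0.254), MC3 lying just under MO3. It passed as higher with library size in place of TMM (edgeR adjusted p = 0.0978) and without MO2 and MC3 (edgeR adjusted p = 0.0816). The log2 difference of Ndufb3, another accessory subunit, was -0.32 (SE 0.23, edgeR adjusted p = 0.634). It was -0.139 without MC3 and -0.461 without MO2, and Ndufb3 passed as lower with the covariate for MO2 and MC3 (edgeR adjusted p = 0.0284).

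Assembly factors of complexes II to V gave 0 of 30 tested genes past the threshold in edgeR's quasi-likelihood test, 2 with an unadjusted p under 0.05 and a median of -0.20, where 4.38% and 14.3% of all genes tested passed these thresholds. DESeq2's Wald test called 1 of them, Uqcc1 (adjusted p = 0.0393), and 9.59% of all genes tested, and limma on log2(TPM + 0.5) called 0. Uqcc1, needed for complex III, was at 33.05, 29.5 and 31.3 CPM in MS-5 only and at 23.4, 24.8 and 23.0 CPM in co-culture. The log2 difference was -0.40 (SE 0.12, edgeR adjusted p = 0.182). Counting coding transcripts alone, it was -0.685 (edgeR adjusted p = 0.638). The log2 difference of Sco1, a copper chaperone of complex IV, was -0.45 (SE 0.16, edgeR adjusted p = 0.275). In both, all co-culture libraries lay below all MS-5 only libraries, as in 4 of the 30 genes and in 9.6% of all genes tested. With a covariate for MO2 and MC3 the numbers called lower were 5 of the 11 other complex I assembly factors, 3 of the 7 nuclear core subunits, 0 of the 7 mitochondrial core subunits, 11 of the 29 accessory subunits, with Ndufv3 called higher, and 10 of the 30 assembly factors of the other complexes, read against 16.4% of all genes tested. The median was negative in each list.

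**Figure D4:**
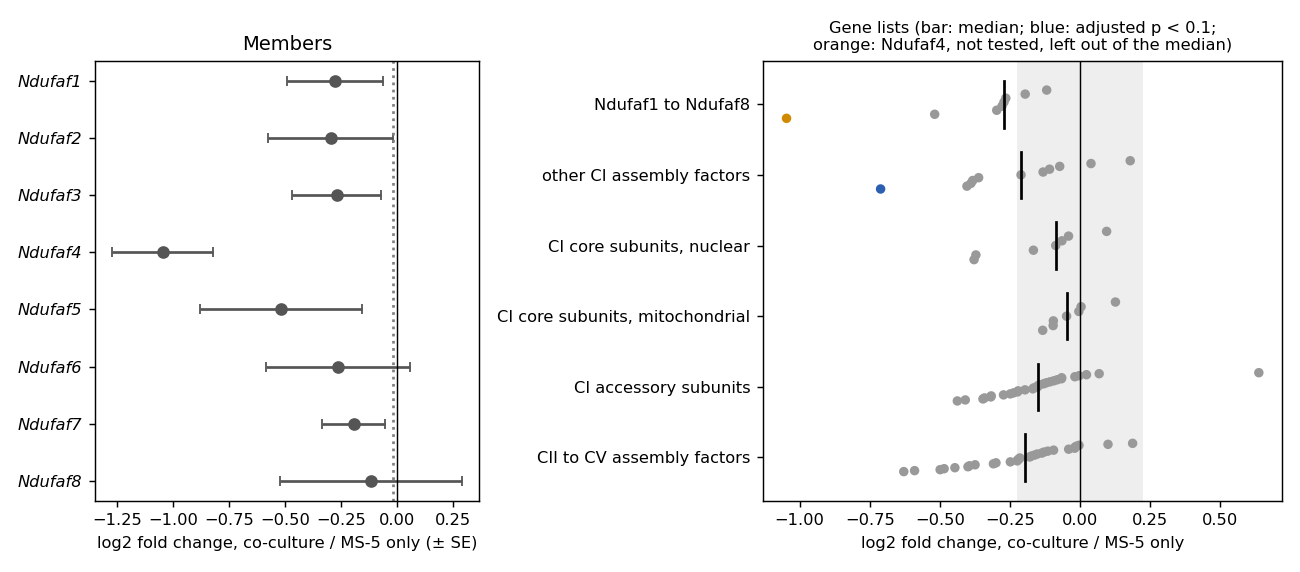
Log2 fold changes, co-culture over MS-5 only. On the left are the 8 genes with standard errors, and the dotted line is the median of all genes tested (-0.02). On the right are the genes of each list (CI is complex I) with the list median as a bar (Ndufaf4 left out) and the middle 50% of all genes tested as grey shading. Ndufaf4 (-1.05, orange) and Tmem186 (-0.71, blue) lie farthest to the left, and Ndufv3 (0.64) farthest to the right.

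The genes that share a start region with a member were compared in the same fit. Ercc8, a DNA repair gene beside Ndufaf2, was lower in every co-culture library, with 7.66, 6.65 and 6.16 CPM in MS-5 only and 4.79, 5.28 and 4.22 CPM in co-culture (log2 fold change -0.52, SE 0.20, edgeR adjusted p = 0.303). Counting coding transcripts alone, the log2 fold change of Ercc8 was -0.31. With the covariate for MO2 and MC3 Ercc8 passed (edgeR adjusted p = 0.0648), as did 30.2% of all genes tested. The value of Cebpz beside Ndufaf7 was -0.15 (SE 0.20, edgeR adjusted p = 0.851), that of Esf1 beside Ndufaf5 -0.27 (SE 0.45, edgeR adjusted p = 0.904) and that of Tepsin beside Ndufaf8 -0.11 (SE 0.36, edgeR adjusted p = 0.967). The sign of Esf1 turned without MO2, and that of Tepsin without MO2, MC1 or MC2. Cebpz kept its sign, with -0.0527 without MC2 and -0.306 without MO3. Smim15 overlaps Ndufaf2 by 4727 bases and Impdh2 overlaps Ndufaf3 by 48 bases, both on the opposite strand. The study's methods name stranded libraries, but whether strand was used in counting is not given in the sources used here, so that reads from such overlaps may be shared.

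The genes whose pattern over the 6 libraries was nearest to that of Ndufaf4 were Trmt61a, Rrs1, Hells, Orc2 and Rrm2. The measure was the root mean square distance between log2 CPM values, each gene centred on its own mean, over the 10187 other genes with a mean of at least 5 CPM. The distance was 0.071 for Trmt61a, a tRNA methyltransferase subunit, 0.137 for Rrs1, a ribosome biogenesis factor, 0.15 for Hells, a chromatin remodeller, 0.154 for Orc2, a subunit of the origin recognition complex, and 0.162 for Rrm2, a subunit of ribonucleotide reductase, where the median gene was at 0.579. Trmt61a was at 15.2, 9.45 and 9.74 CPM in MS-5 only and at 5.19, 5.65 and 5.36 CPM in co-culture. The other assembly factors were farther away, from 0.468 for Ndufaf1 (rank 2156 of 10187) to 0.651 for Ndufaf8 (rank 6828). The list is a description of 6 shared libraries.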

How the data were processed

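RNA-seq libraries of MS-5 cells alone (3) and in co-culture (3) were grouped by their titles. The authors quantified the reads with Kallisto 0.43.0 against a mouse GRCm38 cDNA index and deposited, per transcript, an estimated count with no normalization and a TPM value, scaled by effective length to the same total in each library. Of 118489 transcripts, 116728 matched GENCODE M21 in version and length and were summed per gene. The other 1761 were left out. Summed counts were rounded, filtered with filterByExpr (13221 genes tested), normalized by TMM (factors 0.923 to 1.18) and compared without a block by the quasi-likelihood F test of edgeR 4.0.16 in R 4.3.3, with Benjamini-Hochberg adjustment over all genes tested and a threshold of 0.1. Each standard error is the absolute log2 fold change over the root of F. An exact permutation test of 3 against 3 libraries cannot go below 0.1. The fit was tested on simulated data.

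Members, lists and tests were chosen with earlier results of these data known. Named genes were the members, up to 3 called genes of a list or else the 2 with the smallest p, the 5 genes nearest to Ndufaf4 and overlapping genes. Partners, divergent genes and Foxred1 were added after their values were seen. Alternatives were DESeq2 1.42.0 (size factors, Wald test), library size, no filter, limma 3.58.1 (log2 of TPM plus 0.1, 0.5 or 1), a replicate block, MO2 and MC3 marked by a covariate, leaving out single libraries and a threshold of 0.05. Leaving out both MO2 and MC3, and counting coding transcripts alone, were chosen after seeing the data. The covariate also marks a split that was seen in these same libraries and that no label names. The p-values of the fit with the covariate do not allow for that choice. Promoter windows are those of RefSeq (GRCm38.p6), found for 7 members. Deposited transcript lengths were used for matching alone.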

Additional observations from a re-analysis of the deposited data

How the results depend on the processing

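Ndufaf4 stayed lower under each alternative tried, with log2 fold changes from -0.80 (without MO1) to -1.21 (without MO2 and MC3). Ndufaf4 chose the set by its fall in these same libraries, so that these values are a description and no support for it. Of the 7 other assembly factors, 0 passed in the main comparison, and 2 when a covariate marked MO2 and MC3. The count was 0 under each of the other alternatives. The log2 fold change of Ndufaf8 turned positive by limma on TPM, at 0.14, 0.142 and 0.138 with pseudocounts of 0.5, 0.1 and 1, and lay between -0.419 and 0.12 with each library left out. The other 6 kept their sign under each alternative but not their size, with ranges over the left-out libraries of -0.425 to -0.138 for Ndufaf1, -0.487 to -0.0968 for Ndufaf2, -0.397 to -0.111 for Ndufaf3, -0.783 to -0.282 for Ndufaf5, -0.433 to -0.0247 for Ndufaf6 and -0.292 to -0.13 for Ndufaf7.

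Over all genes, 579 passed, against 1268 by DESeq2's Wald test, 264 and 111 by limma with pseudocounts of 0.5 and 1, 3999 with the covariate, 1655 without MO2 and MC3, 3 with coding transcripts alone, 2 at a threshold of 0.05, and 0 to 509 with each library left out (0 without any of MO1, MO2 and MO3, and 287 without MC1). The share of these called lower was 15.2%, against 54.1% with the covariate, 36.7% without MO2 and MC3, 28.2% by DESeq2's Wald test and 19% with library size. It was 13.6% with DESeq2 size factors, 7.24% with no filter, 0.225% with the replicate block, 1.14%, 2.69% and 0% by limma with pseudocounts of 0.5, 0.1 and 1, 0% with coding transcripts alone, and 0%, 2.52% and 4.32% without MC1, MC2 and MC3. Of the listed genes 1 passed (Tmem186), against 2 by DESeq2's Wald test (Tmem186 and Uqcc1), 30 with the covariate, 8 without MO2 and MC3, and 0 by limma, with the replicate block, with coding transcripts alone, at 0.05 and with each library left out. With library size 1 passed as well, but it was Ndufv3 (adjusted p = 0.0978) and not Tmem186 (adjusted p = 0.187). The causes were not tested.

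With each library left out, log2 fold changes ranged from -0.113 to 0.399 for mt-Nd6, -0.404 to 0.213 for mt-Nd2, -0.543 to 0.0236 for Ndufa12, -0.0754 to 0.194 for Tmem126b, -0.693 to 0.221 for Esf1, -0.439 to 0.225 for Tepsin and -0.141 to 0.366 for Impdh2. The replicate block for paired numbers gave 444 genes and 0 of the 7 members, with Ndufaf4 at -1.02. Deviations of same-numbered libraries from their group means correlated across genes at 0.532, -0.291 and -0.516, and MO2 correlated best with MC3 (0.73). These deviations carry the difference of MO2 and MC3 from the other libraries. They therefore cannot show whether the numbers pair the libraries.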
